A study of Mus musculus with 12 samples.

Results

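The genes described here were 8 long intergenic noncoding RNA (lincRNA) genes measured in retina and striatum from R6/1 and wild-type (wt) mice. They were the genes of the count table whose GENCODE M21 biotype was lincRNA and whose counts summed to 1000 or more over all 12 libraries, and they made up 8 of 17579 genes in the table. They were therefore chosen by measured values, namely the summed counts, and their abundance is given below as a description only. Abhd11os was set aside by the rule and carried another biotype in GENCODE M21, so its exclusion changed nothing.

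The study asked how the retina of a Huntington's disease model is altered compared with the striatum, the brain area most affected in the disease. R6/1 mice carry a transgene with exon 1 of the human huntingtin gene bearing an expanded CAG repeat. The 4 groups were R6/1 retina, wt retina, R6/1 striatum and wt striatum, each with 3 libraries. All mice were untreated males on a C57Bl/6 background (C57BL/6 J in the study's methods) at 13 to 15 weeks of age, and each library came from pooled tissue of 3 or 4 mice. Retinas and striata came from the same mice, the libraries were made from polyadenylated RNA, and the human transgene was not analysed here.

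LincRNAs are transcribed by RNA polymerase II from loci between protein-coding genes, and most are capped, spliced and polyadenylated like messenger RNAs but lack a conserved open reading frame. Some act in the nucleus on chromatin or nuclear bodies, some act in the cytoplasm on other RNAs, and some loci matter through the act of transcription or encode small proteins. As a class they are known for low levels and for restriction to few tissues, the brain and retina among them. No function is stated here for most of the 8 genes, which carry clone or model names, and their position and structure are given instead.

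The count table held few lincRNA genes, 16 of the 5854 that GENCODE M21 annotates, against 16409 protein-coding genes. The members closest above the threshold were C920006O11Rik with 1062 counts, 1810058I24Rik with 1964 and 9330102E08Rik with 3043. The lincRNA genes closest below it were Zfp469 with 747 counts, 1810020O05Rik with 482 and Gm4349 with 372. Well-known abundant lincRNAs such as Malat1, Neat1, Meg3 and Miat had no row in the count table and could not be analysed. The 8 genes therefore do not stand for the most abundant lincRNAs of either tissue. Of 88 genes on lists of noncoding RNAs by role (nuclear bodies, imprinted regions, X inactivation, snoRNA and microRNA hosts and others), 4 had a row in the table and none of these was a member. GENCODE M21 gave Snhg11, 1 of these 4, as protein-coding, so a place on the lists does not make a gene noncoding. Among these 4, Tug1, a nuclear-retained RNA required for photoreceptor development in mice, was lower in R6/1 retina (log2 difference −0.23, SE 0.06, adjusted p = 0.00865; not called with library totals, adjusted p = 0.143) and was not called in striatum (0.02, SE 0.08, adjusted p = 0.904). For Ptprv, another of the 4, coding status was not examined. It averaged 3.40 ± 1.23 CPM in R6/1 striatum and 13.8 ± 1.19 CPM in wt striatum (SD, n = 3 each). The log2 difference was −2.05 (SE 0.25, adjusted p = 0.0165), and retina held no count of it. That call was lost without R6/1 striatum replicate 1 (adjusted p = 0.0717), wt striatum replicate 1 (0.104) or wt striatum replicate 3 (0.0973).

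**Figure D1:**
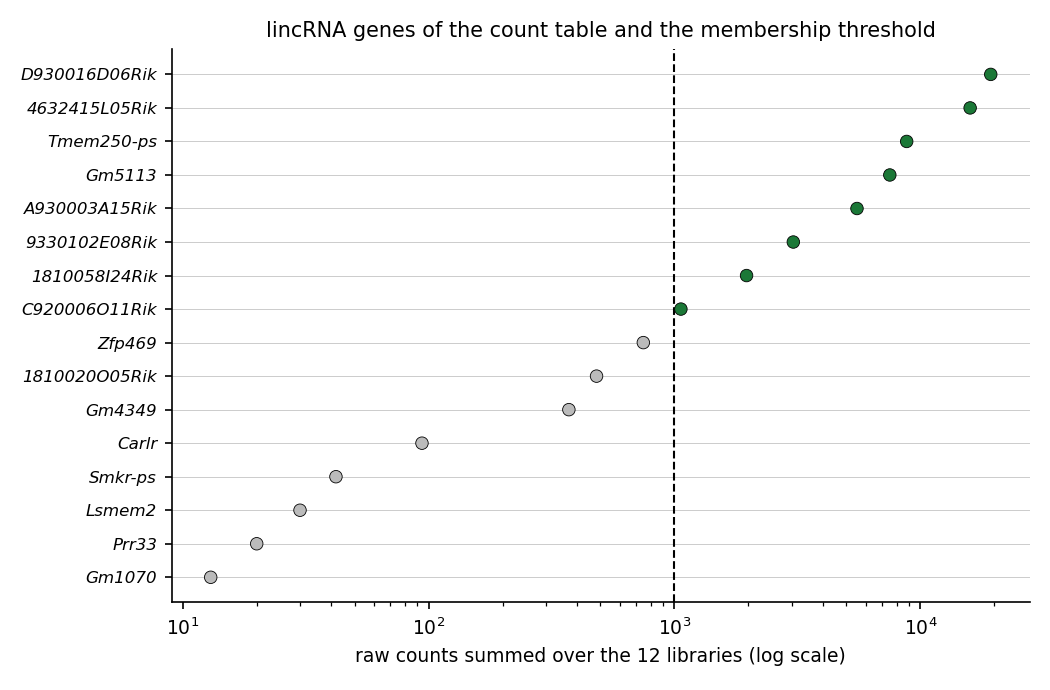
Raw counts summed over the 12 libraries (horizontal axis, log scale) for the 16 lincRNA genes of the count table, 1 point a gene, with the threshold of 1000 as a dashed line. The 8 members lie between 1062 and 19330 counts, and the highest gene below the line, Zfp469, had 747.

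The biotype label did not hold equally for all 8 genes. RefSeq listed 4 of them as long noncoding RNAs (Gm5113, A930003A15Rik, 9330102E08Rik and C920006O11Rik), 2 as protein-coding (1810058I24Rik and Tmem250-ps) and 1 as a transcribed pseudogene (4632415L05Rik), while D930016D06Rik had no match. 1810058I24Rik is also named Stmp1 and encodes a small mitochondrial membrane protein. The name Tmem250-ps labels that gene as a pseudogene, against its RefSeq listing, and the origin of the locus was not examined. The longest open reading frame had 170 codons in Tmem250-ps, 141 in Gm5113, 140 in 9330102E08Rik, 122 in 4632415L05Rik, 92 in C920006O11Rik, 87 in A930003A15Rik, 75 in 1810058I24Rik and 58 in D930016D06Rik. Presence of a reading frame does not show that it is translated.

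In GRCm38 coordinates, D930016D06Rik lay at chr5:104525735-104554207 on the plus strand and 4632415L05Rik at chr3:19894886-19898984 on the plus strand. Tmem250-ps lay at chr2:26136814-26140521 on the minus strand and Gm5113 at chr7:30169875-30182324 on the plus strand. A930003A15Rik lay at chr16:19876567-19884274 on the minus strand and 9330102E08Rik at chr6:128169704-128183803 on the minus strand. 1810058I24Rik lay at chr6:35252654-35263496 on the plus strand and C920006O11Rik at chr9:78175914-78178879 on the plus strand. 4632415L05Rik was the only member whose annotated transcripts all had 1 exon. The span of Tmem250-ps overlapped the lincRNA gene 1810012K08Rik on the opposite strand, and that of A930003A15Rik overlapped the lincRNA gene Gm49598 on the opposite strand and the microRNA gene Gm27883 on the same strand. The library kit marked strand, but whether strand was used in the quantification was not stated in the sources used here.

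RefSeq promoter windows of 300 bases, 250 before the annotated start and 50 after it, matched 6 of the 8 genes, not D930016D06Rik and 4632415L05Rik. They are written 5′ to 3′ on the strand of the gene, in build GRCm38.p6. Both strands were searched for TAATCC (the core bound by the retinal homeodomain factors CRX and OTX), TAATTA (a general homeodomain core), TATAAA (the TATA box), CAGCTG (an E-box) and TGACG (a part of the cyclic AMP response element). 4 windows are shown with every match in capitals. They belong to the gene that was restricted to the retina (A930003A15Rik, chr16:19884225-19884524, minus strand), the gene that was lower in R6/1 retina with a lower level in R6/1 striatum as well (9330102E08Rik, chr6:128183754-128184053, minus strand), the gene that was lower in R6/1 retina and higher in retina than striatum (C920006O11Rik, chr9:78175664-78175963, plus strand) and, for contrast, a gene with no called genotype difference in either tissue (Gm5113, chr7:30169625-30169924, plus strand).
A930003A15Rik: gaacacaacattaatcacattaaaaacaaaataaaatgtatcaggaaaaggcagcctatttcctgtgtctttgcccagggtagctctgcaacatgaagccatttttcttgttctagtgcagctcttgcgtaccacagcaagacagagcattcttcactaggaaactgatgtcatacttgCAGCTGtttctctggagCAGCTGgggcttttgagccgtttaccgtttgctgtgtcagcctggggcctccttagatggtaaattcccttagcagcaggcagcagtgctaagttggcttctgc
9330102E08Rik: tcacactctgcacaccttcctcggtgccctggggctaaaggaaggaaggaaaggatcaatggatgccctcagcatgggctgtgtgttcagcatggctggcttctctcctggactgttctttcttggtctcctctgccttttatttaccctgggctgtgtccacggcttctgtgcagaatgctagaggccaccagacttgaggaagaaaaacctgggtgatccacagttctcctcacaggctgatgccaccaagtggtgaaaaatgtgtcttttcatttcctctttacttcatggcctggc
C920006O11Rik: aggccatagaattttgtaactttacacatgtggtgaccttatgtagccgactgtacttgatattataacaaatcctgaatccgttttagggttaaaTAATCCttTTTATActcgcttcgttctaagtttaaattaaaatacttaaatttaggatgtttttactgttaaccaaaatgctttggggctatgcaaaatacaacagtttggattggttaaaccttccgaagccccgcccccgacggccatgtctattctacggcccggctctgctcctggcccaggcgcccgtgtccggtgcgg
Gm5113: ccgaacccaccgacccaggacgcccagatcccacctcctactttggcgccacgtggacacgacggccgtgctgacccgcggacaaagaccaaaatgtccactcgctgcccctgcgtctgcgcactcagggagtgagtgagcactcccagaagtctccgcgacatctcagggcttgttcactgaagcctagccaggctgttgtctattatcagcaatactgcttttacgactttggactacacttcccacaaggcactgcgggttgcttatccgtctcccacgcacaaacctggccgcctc

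The window of C920006O11Rik held TAATCC on the plus strand 154 bases before the start and TATAAA on the minus strand (read as TTTATA) 146 bases before it, with no overlap between the matches. The window of A930003A15Rik held CAGCTG 71 and 54 bases before the start and no TAATCC. The windows of 9330102E08Rik and Gm5113 held none of the 5 motifs. Over all 32851 RefSeq mouse windows, 7.06% held TAATCC, 5.29% TAATTA, 13.6% TATAAA, 16.3% CAGCTG and 20.8% TGACG, so each of these matches is common. A match here is a description of the letters and not evidence of binding. CpG dinucleotides numbered 20 in the window of Gm5113, 14 in that of C920006O11Rik, 3 in that of A930003A15Rik and 2 in that of 9330102E08Rik, against a median of 7 over all windows. The Gm5113 window is shared with the start of Zfp146, a zinc finger gene that begins 125 bases away on the opposite strand.

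The libraries held 14070445 to 22432431 counts. The 8 genes together took 0.0355 to 0.0395% of the counts in retina libraries and 0.0207 to 0.0240% in striatum libraries. Levels below are counts per 1000000 (CPM) with TMM scaling over the 12 libraries. Log2 differences were fitted with scaling inside each comparison, so that one near 0 can differ in sign from the CPM means. Tissue labels were checked with markers: the summed level of 5 rod markers was 13583 to 57018 CPM in retina libraries and 2.05 to 4.89 CPM in striatum libraries, and that of 6 medium spiny neuron markers was 64.7 to 94.6 CPM in retina and 487 to 2472 CPM in striatum. Replicate 2 of wt striatum stood apart, since its mean Spearman correlation was 0.9904 with R6/1 striatum libraries and 0.9884 with the other wt striatum libraries. Replicate 3 of R6/1 retina carried 516 CPM of 4 lens markers, against 1.36 and 5.61 CPM in the other R6/1 retina libraries and 4.94 to 38.8 CPM in wt retina. Replicate 3 of R6/1 striatum carried 138 CPM of 4 retinal pigment epithelium markers, against 8.17 to 18.9 CPM in the other striatum libraries. It also carried 12.2 CPM of 3 choroid plexus markers, against 3.56 to 5.21 CPM in the others. Calls of members that were lost or gained without such a library are named below.

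**Figure D2:**
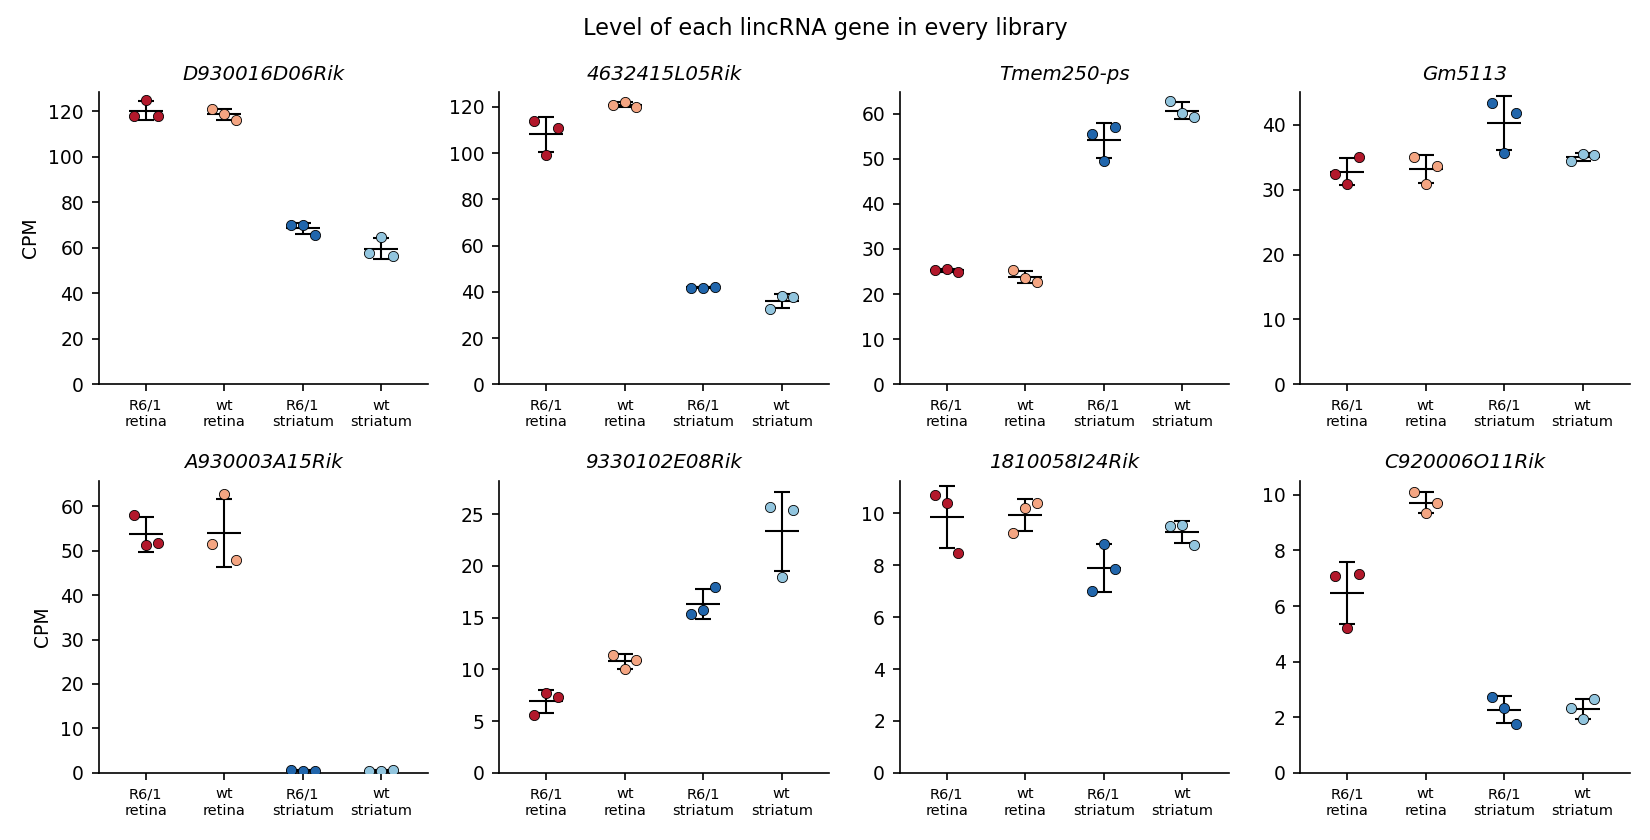
CPM (vertical axis, linear from 0, scale set for each gene) of the 8 genes in every library, grouped as R6/1 retina, wt retina, R6/1 striatum and wt striatum. Points are libraries, and bars show the mean and SD of 3. A930003A15Rik sits between 48.0 and 62.7 CPM in retina libraries and at 0.675 CPM or less in striatum libraries.

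The comparison between tissues asked whether each gene was restricted to the retina or the striatum. A930003A15Rik, a spliced noncoding gene without a known function, was the only member that met the criterion of restriction, a called difference of at least 3 on the log2 scale. Its level was 58.1, 51.2 and 51.7 CPM in R6/1 retina, against 0.558, 0.344 and 0.440 CPM in R6/1 striatum. In wt mice it was 51.5, 62.7 and 48.0 CPM in retina, against 0.299, 0.305 and 0.675 CPM in striatum. Every retina library lay far above every striatum library in both genotypes. The log2 difference was 6.93 in R6/1 mice (SE 0.15, adjusted p = 1.17e-10), a 122-fold difference, and 6.98 in wt mice (SE 0.21, adjusted p = 1.68e-10), a 127-fold difference. Striatum libraries held 5 to 11 counts of it, so its striatal level is imprecise. It entered the set through its 5477 retinal counts, against 47 striatal counts.

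Over all genes tested in R6/1 mice, 4.89% were restricted to the retina and 7.35% to the striatum by the same criterion, and in wt mice 5.78% and 8.22%. Of the 8 lincRNA genes, 1 was restricted to the retina and 0 to the striatum in either genotype. 2 genes were higher in striatum in wt mice by edgeR's quasi-likelihood test, and DESeq2 and limma-voom also called 2, but neither gene reached the criterion. Since a gene could pass the count threshold through 1 tissue alone, these counts are a description. In all, 6 members reached 1000 counts in retina libraries alone, 5 in striatum libraries alone and 1, C920006O11Rik, in neither.

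3 further genes were higher in retina without meeting that criterion, in R6/1 mice with log2 differences of 1.52 for C920006O11Rik, 1.37 for 4632415L05Rik and 0.82 for D930016D06Rik. C920006O11Rik, a noncoding gene of 4 exons, had 10.1, 9.36 and 9.71 CPM in wt retina, against 2.33, 1.93 and 2.64 CPM in wt striatum, with no overlap (log2 difference 2.08, SE 0.16, adjusted p = 3.11e-07). 4632415L05Rik, the pseudogene-like gene, averaged 121 ± 1.02 CPM in wt retina and 36.1 ± 3.12 CPM in wt striatum (SD, n = 3 each), a log2 difference of 1.74 (SE 0.08, adjusted p = 1.72e-09). D930016D06Rik averaged 119 ± 2.58 CPM in wt retina and 59.7 ± 4.49 CPM in wt striatum (log2 difference 0.99, SE 0.07, adjusted p = 1.42e-07).

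2 genes were higher in striatum, in R6/1 mice with log2 differences of −1.09 for Tmem250-ps and −1.23 for 9330102E08Rik. Tmem250-ps averaged 23.9 ± 1.31 CPM in wt retina and 60.7 ± 1.85 CPM in wt striatum (log2 difference −1.35, SE 0.07, adjusted p = 1.3e-08). 9330102E08Rik averaged 10.8 ± 0.693 CPM in wt retina and 23.3 ± 3.81 CPM in wt striatum (log2 difference −1.11, SE 0.13, adjusted p = 1.06e-05). It reached 1000 counts in striatum libraries alone (2155) but not in retina libraries alone (888). Its tissue difference is therefore a description.

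2 genes were not called between the tissues of wt mice. Gm5113, whose start faces that of Zfp146, averaged 33.2 ± 2.13 CPM in wt retina and 35.1 ± 0.592 CPM in wt striatum (log2 difference −0.08, 95% interval −0.25 to 0.09). 1810058I24Rik (Stmp1) averaged 9.93 ± 0.609 CPM in wt retina and 9.28 ± 0.437 CPM in wt striatum (log2 difference 0.09, 95% interval −0.16 to 0.35). In R6/1 mice Gm5113 was lower in retina than in striatum, with a log2 difference of −0.28 (SE 0.09, adjusted p = 0.0167), and the libraries of the tissues did not overlap. That call was lost without R6/1 retina replicate 2 (adjusted p = 0.0571) or R6/1 striatum replicate 1 (0.0693) or 3 (0.0597). The difference between genotypes in this tissue difference was not called (−0.21, SE 0.12, adjusted p = 0.31). 1810058I24Rik had 10.7, 10.4 and 8.48 CPM in R6/1 retina, against 7.0, 8.82 and 7.86 CPM in R6/1 striatum, with overlapping libraries (log2 difference 0.33, SE 0.14, adjusted p = 0.0605). It was called as higher in R6/1 retina in 4 of 15 alternatives, namely without R6/1 retina replicate 3, the lens-rich library (0.42, adjusted p = 0.0316), without R6/1 striatum replicate 2 (0.41, adjusted p = 0.0298), with library totals (0.38, adjusted p = 0.0381) and in a single fit of the 12 libraries (0.32, adjusted p = 0.0321).

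Thus 4 of 8 members were higher and 3 lower in R6/1 retina than in R6/1 striatum, beside 36.3% and 36.9% of all genes tested, and 5 were higher in those 4 alternatives, where 1810058I24Rik was added. In wt mice 4 were higher and 2 lower in retina, beside 37.8% and 38.5% of all genes. The median absolute log2 difference of the 8 was 1.16 in R6/1 and 1.23 in wt mice.

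**Figure D3:**
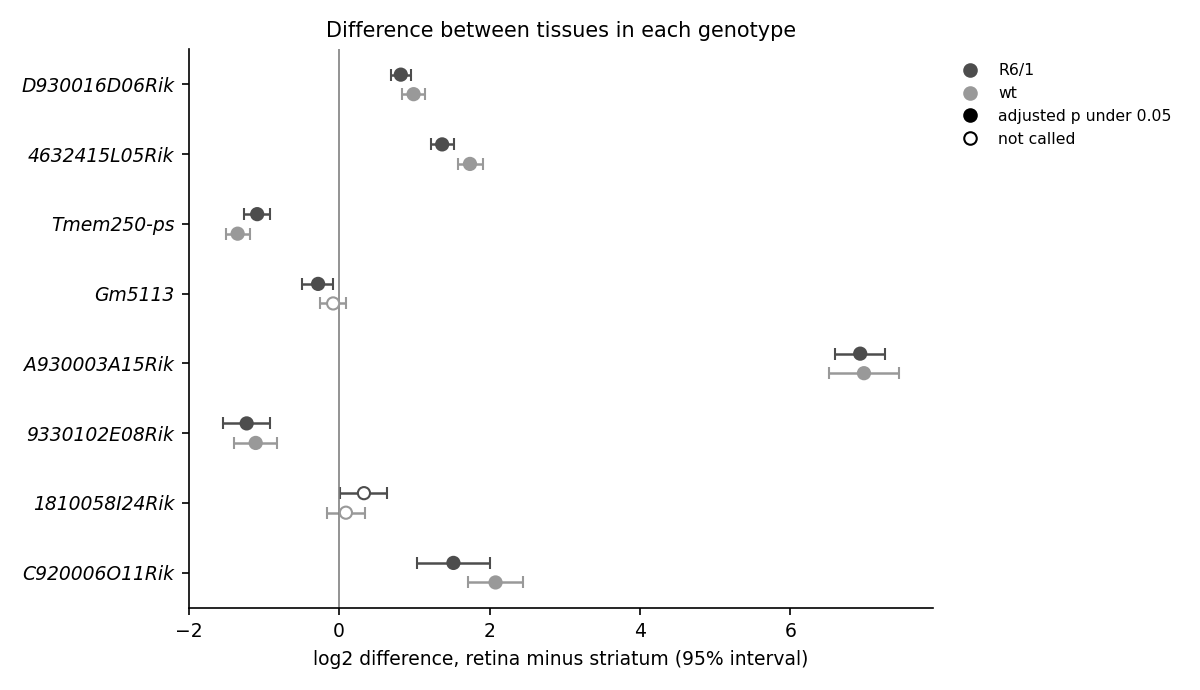
Log2 difference between retina and striatum (horizontal axis, retina minus striatum) for the 8 genes in R6/1 mice (dark) and wt mice (light), with 95% intervals. Filled points had an adjusted p under 0.05. A930003A15Rik lies at 6.93 and 6.98, and the other 7 genes lie between −1.35 and 2.08.

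Compared per kilobase of exon, A930003A15Rik had the highest mean level of the set in retina, with 47.7 CPM per kilobase in R6/1 and 48.0 in wt. 4632415L05Rik followed with 26.3 and 29.5 CPM per kilobase, and D930016D06Rik with 24.4 and 24. In striatum the highest was Tmem250-ps with 21.8 CPM per kilobase in R6/1 and 24.4 in wt, and the lowest was A930003A15Rik with 0.397 and 0.379. These orders follow from levels, which the rule used, and were not tested.

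The comparison of R6/1 with wt retina asked which of the genes changed with the transgene in that tissue. 9330102E08Rik and C920006O11Rik were downregulated in R6/1 retina and no member was upregulated. That is 2 of 8 lower, beside 12.7% of all genes tested, and 0 of 8 higher, beside 9.58%. For higher levels, no member had an unadjusted p under 0.05 with edgeR, and DESeq2 and limma-voom called 0 as well.

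9330102E08Rik, a noncoding gene of 3 exons, had 5.62, 7.72 and 7.37 CPM in R6/1 retina, against 11.4, 10 and 10.9 CPM in wt retina. Every R6/1 library lay below every wt library. The log2 difference was −0.61 (SE 0.14, adjusted p = 0.00374), and it stayed called under each of 15 alternatives, with adjusted p between 0.00146 and 0.0286. Without the lens-rich R6/1 library it was −0.66 (adjusted p = 0.00843). Among protein-coding genes of the count table, the closest to it was Tspan9, a tetraspanin gene 26110 bases away on the same strand. Tspan9 was higher in R6/1 retina, with 41.2 ± 1.87 CPM against 33.4 ± 1.55 CPM in wt (log2 difference 0.34, SE 0.07, adjusted p = 0.00217).

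C920006O11Rik had 7.09, 5.20 and 7.15 CPM in R6/1 retina, against 10.1, 9.36 and 9.71 CPM in wt retina. The groups did not overlap. The log2 difference was −0.56 (SE 0.14, adjusted p = 0.00964) and was called under each of 15 alternatives, with adjusted p up to 0.0483. Without the lens-rich R6/1 library it was −0.63 (adjusted p = 0.0131). The gene starts 3807 bases beyond the end of Ick, a kinase gene with a role in primary cilia, on the same strand. Ick was lower in R6/1 retina as well, with 72.5 ± 4.13 CPM against 94.4 ± 3.74 CPM in wt (log2 difference −0.35, SE 0.06, adjusted p = 0.000772). Gsta4, a glutathione transferase gene 3895 bases away on the other side, had a log2 difference of 0.01 (SE 0.12, adjusted p = 0.974).

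Cell type markers moved in the same libraries. The summed level of the 5 rod markers was 13583 to 20266 CPM in R6/1 retina, against 49229 to 57018 CPM in wt retina, and that of the 4 cone markers was 49.7 to 62.0 CPM in R6/1 retina, against 801 to 911 CPM in wt retina. All 5 rod, 4 cone, 4 bipolar, 3 amacrine and 2 horizontal cell markers were lower in R6/1 retina, and so were 3 of 4 ganglion cell markers. 2 of 4 astrocyte and 2 of 4 microglia markers were higher. In bulk tissue, fewer cells of a type and less RNA per cell cannot be told apart, and the part of these shifts in the 2 results was not tested. The cone markers Opn1sw, Opn1mw and Gnat2 were at 0 in all striatum libraries.

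The other 6 genes were not called in R6/1 retina. A930003A15Rik, the retina-restricted gene, averaged 53.7 ± 3.85 CPM in R6/1 retina and 54.1 ± 7.65 CPM in wt retina, with overlapping libraries (log2 difference 0.02, 95% interval −0.18 to 0.22, adjusted p = 0.898). 4632415L05Rik had 114, 99.4 and 111 CPM in R6/1 retina, against 121, 122 and 120 CPM in wt retina, without overlap, but its log2 difference of −0.13 did not pass (SE 0.06, adjusted p = 0.153). The remaining 4 had log2 differences of 0.01 to 0.11 with intervals within −0.25 to 0.29. Groups were apart and lower in R6/1 for 3 of 8 genes, beside 23.0% of all genes, and apart and higher for 0, beside 15.3%.

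The comparison of R6/1 with wt striatum asked the same in the brain. By edgeR's quasi-likelihood test 0 of 8 genes were lower, beside 1.32% of all genes, and 0 were higher, beside 0.132%. At an unadjusted p under 0.05, 1 gene was lower and 2 were higher. DESeq2 called 1 lower and 0 higher, and limma-voom called none.

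The gene that was lower by DESeq2 was 9330102E08Rik. It had 15.3, 15.7 and 18 CPM in R6/1 striatum, against 25.7, 18.9 and 25.4 CPM in wt striatum, and the groups did not overlap. Its log2 difference was −0.51 (SE 0.13, 95% interval −0.81 to −0.21) with an adjusted p of 0.0906. No label pairs R6/1 with wt striatum pools. With the replicate number as a block the log2 difference was −0.50 (adjusted p = 0.0135), where 7.11% of all genes were lower. It was also called by DESeq2 (adjusted p = 0.0283), where 4.84% of all genes were lower, and in a single fit of the 12 libraries (adjusted p = 0.0319). Without wt striatum replicate 2, the library that stood apart and the lowest of the wt group, it was −0.64 (adjusted p = 0.00601), and without any 1 of the other 5 libraries it was not called, with adjusted p up to 0.329. The genotype effect did not differ detectably between tissues (−0.13, 95% interval −0.56 to 0.29, adjusted p = 0.74).

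Beside that value, the summed level of the 6 medium spiny neuron markers was 944, 487 and 897 CPM in R6/1 striatum, against 2472, 1765 and 1942 CPM in wt striatum. The 4 cortical excitatory neuron markers summed to 207, 281 and 311 CPM in R6/1 striatum, against 567, 220 and 621 CPM in wt striatum, with replicate 2 of wt within the R6/1 range. By edgeR's test 1 of the 6 medium spiny neuron markers and 0 of the 4 cortical markers were lower in R6/1 striatum, beside 1.32% of all genes. The part of either shift in the level of 9330102E08Rik was not tested.

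The 2 genes with higher values were 4632415L05Rik and D930016D06Rik. 4632415L05Rik had 41.7, 41.7 and 42.3 CPM in R6/1 striatum, against 32.5, 38.0 and 37.8 CPM in wt striatum (log2 difference 0.21, SE 0.08, adjusted p = 0.184). D930016D06Rik had 70.1, 69.8 and 65.7 CPM in R6/1 striatum, against 57.7, 64.8 and 56.5 CPM in wt striatum (log2 difference 0.20, SE 0.07, adjusted p = 0.188). In both, every R6/1 library lay above every wt library, yet neither passed over all genes. D930016D06Rik was called only without wt striatum replicate 2 (0.26, adjusted p = 0.0400). Groups were apart and higher for 3 of 8 genes, these and Gm5113, beside 12.8% of all genes, and apart and lower for 2 of 8, 9330102E08Rik and Tmem250-ps, beside 12.7%. Gm5113 had 43.4, 35.6 and 41.8 CPM in R6/1 striatum, against 34.4, 35.5 and 35.4 CPM in wt striatum, so that its lowest R6/1 library lay next to the highest wt library (log2 difference 0.19, adjusted p = 0.264).

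C920006O11Rik, which was lower in R6/1 retina, had 2.73, 2.32 and 1.76 CPM in R6/1 striatum, against 2.33, 1.93 and 2.64 CPM in wt striatum. The libraries overlapped, with a log2 difference of −0.02 (95% interval −0.57 to 0.53). It had 32 to 54 counts a library there, and the value measured in retina, −0.56, lay just inside that interval. The difference between the tissues in its genotype effect was −0.57 (95% interval −1.15 to 0.01, adjusted p = 0.22) and did not pass.

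Tmem250-ps had 55.5, 49.6 and 57.1 CPM in R6/1 striatum, against 62.8, 60.1 and 59.2 CPM in wt striatum (log2 difference −0.17, SE 0.08, adjusted p = 0.253). Its R6/1 libraries all lay below the wt libraries. 1810058I24Rik, the gene of the small mitochondrial protein, averaged 7.90 ± 0.908 CPM in R6/1 striatum and 9.28 ± 0.437 CPM in wt striatum (log2 difference −0.23, SE 0.13, adjusted p = 0.346), with overlap. For A930003A15Rik, at 5 to 11 counts a library, the interval ran from −1.08 to 1.2, too wide to read a change in striatum.

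**Figure D4:**
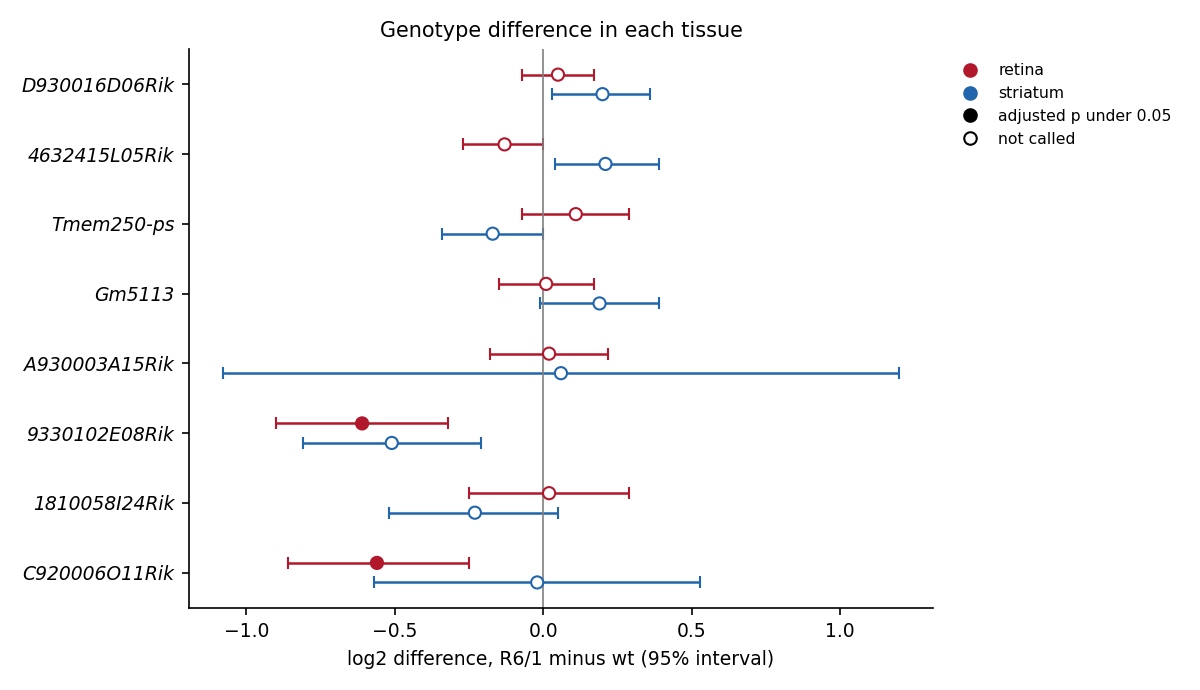
Log2 difference between R6/1 and wt (horizontal axis, R6/1 minus wt) for the 8 genes in retina (red) and striatum (blue), with 95% intervals. Filled points had an adjusted p under 0.05. 9330102E08Rik lies at −0.61 in retina and −0.51 in striatum, and C920006O11Rik at −0.56 and −0.02.

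The direct test of the difference between tissues called 1 of 8 genes. 4632415L05Rik had an R6/1 effect that was lower in retina than in striatum by −0.38 on the log2 scale (SE 0.10, adjusted p = 0.0293), with R6/1 below wt in retina and above wt in striatum in every library. This test took the libraries of the 2 tissues as independent. With same-numbered retina and striatum libraries of each genotype taken as a block, the difference was −0.39 (adjusted p = 0.044). Over all genes tested, 4.86% had a lower effect in retina and 3.38% a higher one, and 0 of 8 members had a higher one (1 at an unadjusted p under 0.05, 0 with DESeq2 or limma-voom). The call was lost with library totals in place of TMM (adjusted p = 0.0595) and without any of 7 of the 12 libraries, namely R6/1 retina replicate 2, each wt retina replicate, R6/1 striatum replicates 1 and 3 and wt striatum replicate 1, with adjusted p up to 0.0728. Its transcripts were also 95.1% identical over 506 bases to Gm16505 and 93.1% over 522 bases to Eaf2. The 2 annotated transcripts had 1077 and 4087 bases, so these matches covered only a part of them. In all the transcripts matched at least 81 other genes over 100 bases or more. Reads from such stretches could be shared among genes by the quantification.

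Shared sequence touched other members less closely. Over 100 bases or more, Gm5113 matched transcripts of at least 442 other genes, D930016D06Rik of 418 and 1810058I24Rik of 372, in short stretches. The search kept a limited number of transcripts, so these counts are lower bounds. It covered the sense strand only, where Tmem250-ps, 9330102E08Rik and C920006O11Rik matched none. On that strand A930003A15Rik matched only the microRNA gene Gm27883 that lies within it. Antisense similarity was not sought.

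A background list of 34 genes was followed beside the members. It covered paraspeckle and speckle proteins, nonsense-mediated decay factors, Pumilio and NORAD proteins and XIST-binding proteins. It also held protein genes that were listed only for their place in the imprinted Dlk1-Dio3 region. In retina 7 of 32 tested were lower and 1 was higher in R6/1, beside 12.7% and 9.58% of all genes, with a median log2 difference of 0.00, against 0.01 over all genes. DESeq2 called 9 of them and limma-voom 6. The lower ones with the smallest p were Rbm15, an RNA methylation adaptor (−0.35, adjusted p = 0.00188), Ciz1, which anchors Xist to the nuclear matrix (−0.49, adjusted p = 0.00202), Upf3b, a decay factor (−0.25, adjusted p = 0.00389), and Hnrnpu, a nuclear scaffold protein (−0.27, adjusted p = 0.00701). In striatum 0 of 34 were called by edgeR, beside 1.32% lower and 0.132% higher of all genes, with a median of 0.03 (5 at an unadjusted p under 0.05, 1 called by DESeq2 and 0 by limma-voom).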

How the data were processed

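RNA was extracted from pooled retinas and striata, and stranded mRNA libraries were sequenced by the authors. Per the labels and the study's methods, bases were called with CASAVA, reads were trimmed with Trimmomatic and expression was estimated with Salmon on GRCm38/mm10 (versions not given in the sources used here). The deposited values were estimated counts per gene given as whole numbers, from which the authors had removed genes under 10 counts in all samples. Estimated counts of genes that share stretches of sequence depend on how shared reads are divided. No column was left unused, and depth was 14070445 to 22432431 counts a library. Precision was lowest for genes with few counts a library.

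Members were found by GENCODE M21 biotype and summed counts. The members and all gene lists were chosen with earlier results of these data known. Levels were TMM-scaled CPM (edgeR 4.0.16). Each comparison was fitted over all genes with at least 10 counts in its libraries (in each tissue for the difference between tissues) by edgeR's robust quasi-likelihood test, with Benjamini-Hochberg adjustment and a threshold of 0.05, in R 4.3.3. The difference between tissues was an interaction term over the 12 libraries. That term and the comparisons of tissues took the libraries as independent, although retinas and striata came from the same mice. Only the replicate block paired same-numbered libraries of the 2 tissues. Each SE was derived from the log2 difference and the F statistic of its test, and intervals are 95% t intervals from that SE. Restriction required an adjusted p under 0.05 and an absolute log2 difference of at least 3. Each result was recomputed with DESeq2 1.42.0 and with voom from limma 3.58.1, with other scalings, filters and thresholds, in a single fit of all libraries, with a replicate block and without each library in turn. Deviations of same-numbered libraries correlated at 0.274, 0.329 and 0.257 between R6/1 and wt striatum (10445 genes). They correlated at 0.242, 0.119 and 0.179 between R6/1 retina and R6/1 striatum, and at −0.0943 to 0.124 and −0.0261 to 0.0195 in the other 2 comparisons. Libraries of different number could correlate as well, at 0.24 for R6/1 striatum replicate 3 with wt striatum replicate 1. No label pairs the pools of the 2 genotypes, so these values do not establish pairing. The fitting procedure was tested on simulated data. Similar transcripts were sought with BLAST 2.17.0 in the GENCODE M21 transcripts, on the sense strand only and with a limit on the transcripts kept. Named genes were the members by rank of level, p and tissue difference, which took in all 8, the 3 lincRNA genes below the threshold, and up to 4 partner proteins by smallest p. The pools are the replicates, and p-values measure the spread between pools.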

Additional observations from a re-analysis of the deposited data

Results flagged for a closer look

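The genotype effect on 4632415L05Rik differed between the tissues by the direct test, with a value of −0.38 on the log2 scale (retina effect minus striatum effect, SE 0.10, adjusted p = 0.0293). R6/1 libraries averaged 108 CPM against 121 CPM in wt in retina, and 41.9 CPM against 36.1 CPM in wt in striatum. Neither tissue alone passed (adjusted p = 0.153 in retina and 0.184 in striatum). The part of reads shared with transcripts that match it over a part of its length was not tested.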

How the results depend on the processing

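Of 639 single-gene values under alternatives, 597 kept their direction and side of the threshold, as did 253 of 270 counts of members within 1.5 times. In retina, raising membership to 2000 counts left 1 gene lower, since C920006O11Rik left the set, and library totals called 1 gene higher (D930016D06Rik, 0.17, adjusted p = 0.0435), a scaling that moved the median of all genes to 0.13 in retina and 0.12 in striatum. In striatum, DESeq2, the single fit and the replicate block each called 1 gene lower (9330102E08Rik). The replicate block changed no other call. Leaving out 1 library gave 0 to 1 gene lower and 0 to 1 higher in striatum, the 1 in both cases without wt striatum replicate 2. For the difference between tissues, library totals and an adjusted p under 0.01 left 0 genes, and leaving out 1 library gave 0 to 1. A restriction criterion of 2 gave 2 genes restricted to wt retina. Values near 0 changed sign. In the single fit the retina values were −0.02 for Gm5113, −0.01 for A930003A15Rik and −0.01 for 1810058I24Rik, and library totals gave 0.09 for C920006O11Rik in striatum. Leaving out 1 library gave retina values of −0.03 to 0.05 for Gm5113, −0.06 to 0.14 for A930003A15Rik and −0.05 to 0.12 for 1810058I24Rik, striatum values of −0.14 to 0.53 for A930003A15Rik and −0.17 to 0.13 for C920006O11Rik, and a difference between tissues of −0.52 to 0.14 for A930003A15Rik. The cause of these changes was not tested. Over all genes, calls in striatum ran from 1 lower without wt striatum replicate 1 to 1201 lower without wt striatum replicate 2, against 220. The lowest counts a library were those of A930003A15Rik (5 to 11) and C920006O11Rik (32 to 54) in striatum.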
